A study of Homo sapiens with 12 samples.

Results

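The drug efflux transporters of the ATP-binding cassette (ABC) superfamily described here are 7 genes: ABCB1, ABCC1, ABCC2, ABCC3, ABCC4, ABCC5 and ABCG2. They were named by symbol, with earlier results of these data known. All 7 were present among the 19251 genes listed for each library, and all 7 passed the filter on low values that left 17616 genes for testing. ABCB1 and ABCG2 passed it only through 1 of the cell lines. RNA sequencing was done on 12 libraries from a pair of established human ovarian cancer cell lines, both labelled as wild type and epithelial, to look for transcriptional effects of ovarian cancer ascites, the fluid that gathers in the abdomen of patients. CAOV3 is labelled high grade serous and TOV21G clear cell. Each line gave 3 untreated control libraries, in medium with 10% serum, and 3 libraries of cells kept for 16 h after 150 µL of ascites had been added to 1.5 mL of the same medium (10% ascites). The labels name no addition to the control wells, do not say from how many patients the ascites came, and do not say whether replicates were separate cultures. The p-values therefore measure the spread between these samples, which may be technical.

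ABC transporters use the energy of ATP to move substrates out of the cell or into a compartment. ABCB1 (P-glycoprotein) exports bulky hydrophobic drugs such as taxanes and anthracyclines. ABCC1, ABCC2 and ABCC3 export organic anions, many of them conjugated to glutathione, glucuronate or sulfate. ABCC2 sits at the apical membrane of polarised epithelia, while ABCC1 and ABCC3 sit at the basolateral membrane. ABCC4 and ABCC5 export cyclic nucleotides and some nucleoside drugs. ABCG2 works as a dimer and exports topotecan, urate and many other compounds. In ovarian cancer these proteins are studied for their part in resistance to chemotherapy. Transcript levels alone were measured here, so protein and transport were not.

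The libraries held 26697609 to 34491304 reads, and 18153 to 18426 listed genes had a read in each. Values below are normalised read counts, reads divided by a size factor for the library. The keratin genes KRT8 and KRT18 were present in every library of both lines. PAX8, a factor of the Müllerian lineage, was at 18.2 to 25.6 in the CAOV3 libraries against 6797 to 9342 in TOV21G. WT1, a serous marker, was at 2.15 to 8.19 in CAOV3, so the defining markers of the serous lineage were near 0 in the line labelled serous. NAPSA, a clear cell marker, stayed under 12 in both lines. Of 9 leukocyte markers 3 were listed, and they summed to 129 to 140 in CAOV3 controls, 111 to 139 in CAOV3 with ascites, 19.9 to 33.2 in TOV21G controls and 20.7 to 29.2 in TOV21G with ascites. No red cell marker was among the listed genes.

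The windows before the transcript starts of the members are shown first, because the untreated lines differed most in ABCB1, ABCC2 and ABCG2, and ABCC4 and ABCC5 were present in both. RefSeq windows (GRCh38.p14) were matched by symbol for 5 of the 7 members, all but ABCC1 and ABCC3. Each line holds the 250 bases before a start, 5′ to 3′ on the strand of the gene, in lower case. Capitals mark matches on either strand to TATAAA (the TATA box), CCAAT (bound by NF-Y), GGGCGG (the GC box bound by SP1), CACGTG (the E-box), GCGTG (the core bound by the aryl hydrocarbon receptor) or TGACNNNGC (the antioxidant response element bound by NRF2). No printed match overlapped another. ABCG2 had 5 windows, and the window printed is the closest to the start of its principal GENCODE transcript.
ABCB1 downstream start, chr7:87600885-87601134 (minus): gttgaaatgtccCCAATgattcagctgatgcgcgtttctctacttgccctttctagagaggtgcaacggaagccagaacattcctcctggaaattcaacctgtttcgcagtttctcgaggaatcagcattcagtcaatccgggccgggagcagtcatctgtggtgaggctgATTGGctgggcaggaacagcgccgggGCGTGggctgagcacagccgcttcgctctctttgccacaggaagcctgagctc
ABCB1 upstream start, chr7:87713296-87713545 (minus): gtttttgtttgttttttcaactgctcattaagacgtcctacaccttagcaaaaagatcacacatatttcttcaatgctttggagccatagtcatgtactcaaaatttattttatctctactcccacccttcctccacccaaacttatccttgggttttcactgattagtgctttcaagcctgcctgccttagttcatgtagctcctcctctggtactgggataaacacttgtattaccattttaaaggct
ABCC2, chr10:99782390-99782639 (plus): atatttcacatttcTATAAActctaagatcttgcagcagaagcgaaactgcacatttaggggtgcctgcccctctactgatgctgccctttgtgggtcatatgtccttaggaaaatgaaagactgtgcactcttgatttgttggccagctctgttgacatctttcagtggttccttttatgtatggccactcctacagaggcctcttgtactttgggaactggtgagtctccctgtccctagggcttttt
ABCG2, chr4:88158910-88159159 (minus): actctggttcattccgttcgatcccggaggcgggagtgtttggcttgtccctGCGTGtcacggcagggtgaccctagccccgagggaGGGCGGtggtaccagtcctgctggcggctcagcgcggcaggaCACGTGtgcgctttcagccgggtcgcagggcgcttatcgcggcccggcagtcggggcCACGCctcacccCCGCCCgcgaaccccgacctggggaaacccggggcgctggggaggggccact
ABCC4, chr13:95301452-95301701 (minus): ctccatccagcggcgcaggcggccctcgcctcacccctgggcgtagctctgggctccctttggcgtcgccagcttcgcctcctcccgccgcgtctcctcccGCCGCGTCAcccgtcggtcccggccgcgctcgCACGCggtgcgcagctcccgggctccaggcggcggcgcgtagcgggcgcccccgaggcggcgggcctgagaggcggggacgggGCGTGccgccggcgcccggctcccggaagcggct
ABCC5, chr3:184017885-184018134 (minus): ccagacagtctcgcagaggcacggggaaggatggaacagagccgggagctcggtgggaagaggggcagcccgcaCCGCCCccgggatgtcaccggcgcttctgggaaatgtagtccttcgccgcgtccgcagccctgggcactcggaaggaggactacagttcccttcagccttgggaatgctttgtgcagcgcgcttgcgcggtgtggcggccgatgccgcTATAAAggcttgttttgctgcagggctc

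These windows differed widely in base composition. Over the 35116 windows of the table the median was 58.0% GC and 11 CpG. The ABCC4 window had 80.4% GC and 42 CpG, the ABCG2 window 71.2% and 27, and the ABCC5 window 64.8% and 21. ABCB1 had 55.6% and 12 before its downstream start but 39.2% and 1 before its upstream start, and ABCC2 had 45.6% and 1. The windows of the 3 members near 0 in TOV21G thus ranged from 39.2% to 71.2% GC. TATAAA was found in the windows of ABCC2 (at position -236 from the start) and ABCC5 (at -28), and in 10.7% of all windows. CCAAT was found in the downstream ABCB1 window (32.0% of all), GGGCGG in those of ABCC5 and ABCG2 (42.6%) and CACGTG in that of ABCG2 (6.34%). GCGTG was found in the downstream ABCB1 window and in those of ABCC4 and ABCG2 (32.2%), and TGACNNNGC in that of ABCC4 (10.9%). A match describes the letters of a window and is not a measured binding site, and none of the 6 motifs was found in the upstream ABCB1 window.

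The members lie on 7 chromosomes, by GENCODE on GRCh38. ABCB1 (ENSG00000085563) spans chr7:87503633-87713323 on the minus strand and ABCC1 (ENSG00000103222) chr16:15949577-16143074 on the plus strand. ABCC2 (ENSG00000023839) spans chr10:99782640-99852594 on the plus strand and ABCC3 (ENSG00000108846) chr17:50634777-50692252 on the plus strand. ABCC4 (ENSG00000125257) spans chr13:95019829-95301475, ABCC5 (ENSG00000114770) chr3:183919934-184018015 and ABCG2 (ENSG00000118777) chr4:88090264-88231322, all on the minus strand. The only listed gene annotated over a member is RUNDC3B, on the strand opposite ABCB1, which had 1.02 to 11.9 normalised counts in CAOV3 and 0 to 2.49 in TOV21G. Strand use in counting is not given in the sources used here, so reads of ABCB1 and RUNDC3B could not be told apart where they overlap.

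In the untreated lines, 3 of the 7 transporters were nearly absent from TOV21G, 2 were several times higher there than in CAOV3, and 2 were high in both lines. Each member differed between the lines (limma, adjusted p under 0.05, Benjamini-Hochberg over all tested genes), 5 lower and 2 higher in TOV21G. The background was 82.2% of all genes tested (41.4% lower and 40.8% higher), and 82.6% had groups that did not overlap, so the count of 7 of 7 is not a result about the transporters. For ABCB1 and ABCG2 it also follows from how they passed the filter. The sizes of the differences are what sets the members apart from each other. They are differences between a pair of lines, each a single line of its label. Fewer expressing cells and less RNA per cell cannot be told apart in such bulk libraries.

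ABCB1, the P-glycoprotein gene, had normalised counts of 406, 382 and 420 in the CAOV3 controls and of 5.42, 3.15 and 6.28 in the TOV21G controls. The TOV21G values rest on 5, 3 and 7 reads. All CAOV3 libraries lay far above all TOV21G libraries. From 1137 against 15 reads, the level in CAOV3 was 80.4-fold that in TOV21G (95% interval 48.5 to 144, exact conditional binomial, counting error only). ABCG2, the breast cancer resistance protein, had 546, 473 and 531 in the CAOV3 controls and 2.17, 0 and 0 in the TOV21G controls, 2 reads in all. Its ratio from 1458 against 2 reads was 773 (214 to 6388, same method). With ascites ABCG2 had no read in any TOV21G library, which puts CAOV3 at least 457-fold higher by the lower limit of the same exact method, and 562-fold against a floor of 3 reads over the group.

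ABCC2, the apical organic anion exporter, was at 3177, 3029 and 3316 in the CAOV3 controls and at 29.3, 19.9 and 14.4 in the TOV21G controls. The groups did not overlap, and the ratio from 8966 against 62 reads was 153 (120 to 200, exact conditional binomial, counting error only). The log2 difference, TOV21G minus CAOV3, was -7.22 (SE 0.19, adjusted p = 4.53e-13, limma). Unlike ABCG2, ABCC2 had reads in all 6 TOV21G libraries, 16 to 27 of them.

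The basolateral exporters went opposite ways. ABCC3 was at 932, 833 and 920 in the CAOV3 controls and at 3037, 3278 and 3090 in the TOV21G controls. It was 3.50-fold higher in TOV21G (95% confidence interval 3.21 to 3.83, adjusted p = 3.38e-12, limma), with no overlap. ABCC1 was at 3618, 3739 and 3611 in the CAOV3 controls and at 2074, 2379 and 2249 in the TOV21G controls, where it was 61.0% of the CAOV3 level (56.8 to 65.6, adjusted p = 6.52e-09, limma).

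The exporters of cyclic nucleotides also differed in direction. ABCC5 was at 900.0, 788 and 969 in the CAOV3 controls and at 2861, 3218 and 3078 in the TOV21G controls. It was 3.45-fold higher in TOV21G (3.08 to 3.87, adjusted p = 4.78e-11, limma), about as much as ABCC3. ABCC4 was at 5365, 5587 and 5822 in the CAOV3 controls and at 4017, 4028 and 4121 in the TOV21G controls. Its level in TOV21G was 72.6% of that in CAOV3 (68.7 to 76.7, adjusted p = 3.80e-08, limma), the smallest difference among the members on the log2 scale, and still without overlap of the groups.

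**Figure D1:**
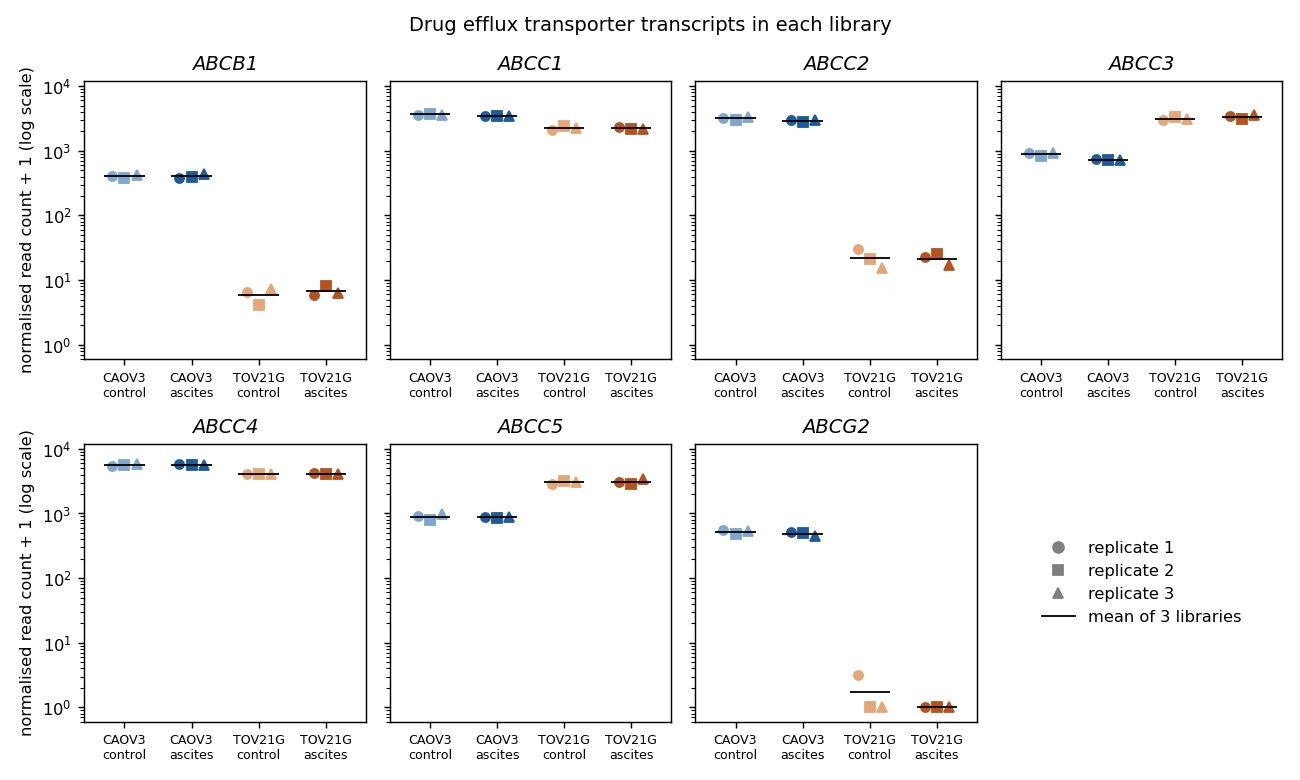
Normalised read count of each transporter (vertical log axis of the value plus 1) in the 3 libraries of each of the 4 groups, 1 point a library and a bar for the mean. ABCB1, ABCC2 and ABCG2 sit at 29.3 or below in every TOV21G library, ABCC3 and ABCC5 sit higher in TOV21G than in CAOV3, and control and ascites points of a line lie close together.

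To compare genes with each other, normalised counts were divided by the length of the union of annotated exons in kb. Per kb, ABCC4 was the highest member in both lines, at 648 ± 26.5 in CAOV3 and 470 ± 6.61 in TOV21G (SD, n = 3 controls). In CAOV3 it was followed by ABCC1 at 483 ± 9.48 and ABCC2 at 405 ± 18.3, with no overlap between these neighbours. Then came ABCG2 at 102 ± 7.62, ABCC3 at 93.1 ± 5.65, ABCC5 at 77.4 ± 7.96 and ABCB1 at 69.3 ± 3.30. Among these 4, ABCG2 overlapped ABCC3 and ABCC5 overlapped ABCB1. In TOV21G the order after ABCC4 was ABCC3 at 326 ± 13.2, ABCC1 at 295 ± 20.2 and ABCC5 at 267 ± 15.7, of which ABCC1 and ABCC5 overlapped. ABCC2 at 2.70 ± 0.96, ABCB1 at 0.85 ± 0.28 and ABCG2 at 0.14 ± 0.25 closed the order. The order depends on the length chosen. The length of the principal transcript was an alternative added after the data were seen. With it, ABCC1 (552, 571 and 551) and ABCC2 (556, 530 and 580) overlapped in the CAOV3 controls. ABCC3 (157), ABCC5 (150) and ABCG2 (115) were the fourth, the fifth and the sixth member in CAOV3, and ABCC5 (516) passed ABCC1 (341) in TOV21G.

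Against all tested genes with a length, the level of ABCC4 per kb lay above 87.0% of genes in the CAOV3 controls and above 82.8% in the TOV21G controls. ABCC1 lay above 82.8% and 72.8%, in the same order. ABCC3 moved from 50.4% to 75.1% and ABCC5 from 47.3% to 70.5%, from near the middle of the CAOV3 range to the upper part of the TOV21G range. ABCC2 went from 79.5% to 10.1%. ABCB1 and ABCG2, at 45.6% and 52.2% in CAOV3, were mid-range there and lay above 6.22% and 3.89% of genes in TOV21G. The summed level of the 7 members per kb was 1842 to 1932 in the CAOV3 controls and 1310 to 1406 in the TOV21G controls. By exon union length, ABCC4 made up the same part of that sum in both lines, 34.5% ± 0.91 in CAOV3 and 34.5% ± 1.21 in TOV21G (SD, n = 3). These parts, like the order, depend on the length chosen, and they were not worked out for the principal transcript. ABCC1 and ABCC2 came next in CAOV3 with 25.7% and 21.6%. In TOV21G ABCC3, ABCC1 and ABCC5 made up 24.0%, 21.6% and 19.6%.

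**Figure D2:**
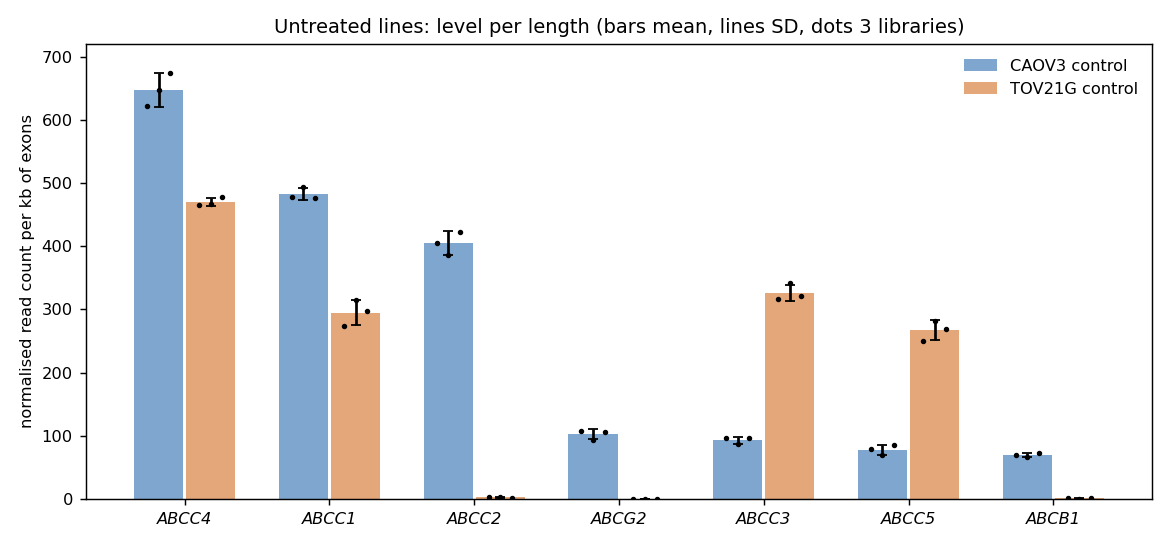
Normalised count per kb of exon union (linear axis from 0) for the 7 transporters in the control libraries of CAOV3 and TOV21G, with bars for means, error bars for the SD over 3 libraries and points for libraries. ABCC4 is the tallest pair of bars (648 and 470), and the bars of ABCB1, ABCC2 and ABCG2 in TOV21G are at 2.70 or below.

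The nearest annotated protein-coding gene on each side of a member was examined by a rule added after the members' values had been seen. ABCB4, the phosphatidylcholine exporter next to ABCB1, was also near 0 in TOV21G, at 0.30 ± 0.52 against 76.9 ± 12.8 in CAOV3 (SD, n = 3 controls). On the other side of ABCB1, SLC25A40 was at 1070 ± 36.1 in TOV21G and 822 ± 86.5 in CAOV3. The neighbours of ABCG2 went opposite ways: PKD2 (polycystin-2) was at 2997 ± 128 in TOV21G and 242 ± 9.96 in CAOV3, and PPM1K was at 294 ± 13.7 and 451 ± 15.3. Beside ABCC2, CUTC was at 875 ± 80.2 in TOV21G and 776 ± 14.6 in CAOV3, and DNMBP at 3396 ± 204 and 6331 ± 155. Next to ABCC3, CACNA1G was lower in TOV21G (14.8 ± 1.18 against 115 ± 13.4), while ANKRD40 was at 2332 ± 154 and 2329 ± 47.2. ABCC6, a relative of ABCC1 that lies beside it, was at 35.9 ± 7.13 in TOV21G and 106 ± 3.63 in CAOV3, and FOPNL on the other side of ABCC1 was at 1904 ± 82.3 and 1880 ± 8.34 (adjusted p = 0.704, limma). Beside ABCC5, PARL was at 95.5 ± 9.09 in TOV21G and 93.1 ± 15.1 in CAOV3 (adjusted p = 0.786, limma), and HTR3D was not analysed here. ABCC4 lies between SOX21 and CLDN10, both listed at 0 in every TOV21G control and at 16.6 ± 1.97 and 709 ± 45.0 in CAOV3. The low level of ABCB1, ABCC2 and ABCG2 in TOV21G was shared by the gene beside ABCB1 on 1 side and by neither of the genes beside ABCC2 or ABCG2.

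For each member the 2 tested genes with the most similar profile were taken, by the root mean square difference of log2(value + 1) over the 12 libraries after centring each gene. For ABCC4 these were GOPC (0.03) and ARIH1 (0.03), and for ABCC1 CAD (0.04) and PRPF8 (0.04). Profiles this flat are common: 48.0% and 43.3% of tested genes lay within 0.5 of ABCC4 and ABCC1. ABCC3 was closest to TBC1D32 (0.06) and PATJ (0.09), and ABCC5 to NCOA3 (0.08) and CDK19 (0.08), with 10.4% and 13.6% of genes within 0.5. ABCB1 was closest to JPH1 (0.19) and HAS2-AS1 (0.22), ABCC2 to SLITRK6 (0.24) and MARCKSL1 (0.24), and ABCG2 to SLC38A4 (0.25) and CDH6 (0.27). Few genes matched these profiles: 1.29%, 0.840% and 0.244% lay within 0.5 of ABCB1, ABCC2 and ABCG2. These shares cover genes with a difference of similar size between the lines, not all line-specific genes. Near 0 the size depends on the added 1, as for HAS2-AS1 and SLITRK6, both at 0 in every TOV21G library. The measure is a description over 12 libraries that share the same 2 lines, and the difference between the lines sets most of it.

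In CAOV3, ABCC3 fell with ascites, and no other member passed the test across all genes. ABCC3 was at 932, 833 and 920 in the controls and at 741, 717 and 722 with ascites, so each ascites library lay below each control. Its level with ascites was 81.3% of the control level (74.4 to 88.9), a log2 difference of -0.30 (SE 0.06, adjusted p = 0.0224, limma). The 1 of 7 transporters called stands beside 1.73% of all genes called in this line (1.1% lower), and a single member is too few to set the group apart. Leaving out a single library ended the call for ABCC3 in 5 cases, while the log2 difference stayed between -0.35 and -0.27. The adjusted p rose to 0.0955 and 0.0950 without control 1 or 3 and to 0.0603, 0.0945 and 0.0818 without ascites 1, 2 or 3. Fitted on the 6 CAOV3 libraries alone, where 8.19% of genes were called, ABCC3 gave an adjusted p of 0.00108 (limma).

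ABCC2 and ABCC1 also had ascites libraries below all controls in CAOV3, without passing the test. The 3 members whose groups did not overlap (ABCC1, ABCC2 and ABCC3) stand beside 24.2% of all tested genes. ABCC2 was at 3177, 3029 and 3316 in controls and at 2972, 2811 and 2977 with ascites. Its level with ascites was 92.0% of control, with an interval of 68.8 to 123 (adjusted p = 0.873, limma). The fit shares 1 estimate of the spread with the low counts of TOV21G, and in the fit of CAOV3 alone the interval was 86.9 to 97.5 (adjusted p = 0.0659, limma). ABCC1 was at 3618, 3739 and 3611 in controls and 3490, 3429 and 3439 with ascites, or 94.4% of control (87.9 to 101, adjusted p = 0.514, and 0.158 in CAOV3 alone, limma).

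The other 4 members overlapped between control and ascites in CAOV3. ABCB1 was at 406, 382 and 420 in controls and at 383, 391 and 434 with ascites. That was 99.9% of control (73.2 to 136 in the fit of all 12 libraries), and the fit of CAOV3 alone bounded this ratio at 89.8 to 111. ABCG2 was at 546, 473 and 531 in controls and at 516, 495 and 455 with ascites. That was 94.6% of control (55.7 to 161 in the fit of all 12 libraries, and 85.5 to 105 in CAOV3 alone). ABCC4 was at 5365, 5587 and 5822 in controls and at 5752, 5682 and 5601 with ascites, 102% of control (96.2 to 107, adjusted p = 0.869, limma). ABCC5 was at 900.0, 788 and 969 in controls and at 876, 853 and 891 with ascites, 98.9% of control (88.3 to 111, adjusted p = 0.983, limma). With 3 libraries a group, changes smaller than these intervals were not detectable. Over the 7 members the median log2 difference was -0.08, against -0.002 over all genes.

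**Figure D3:**
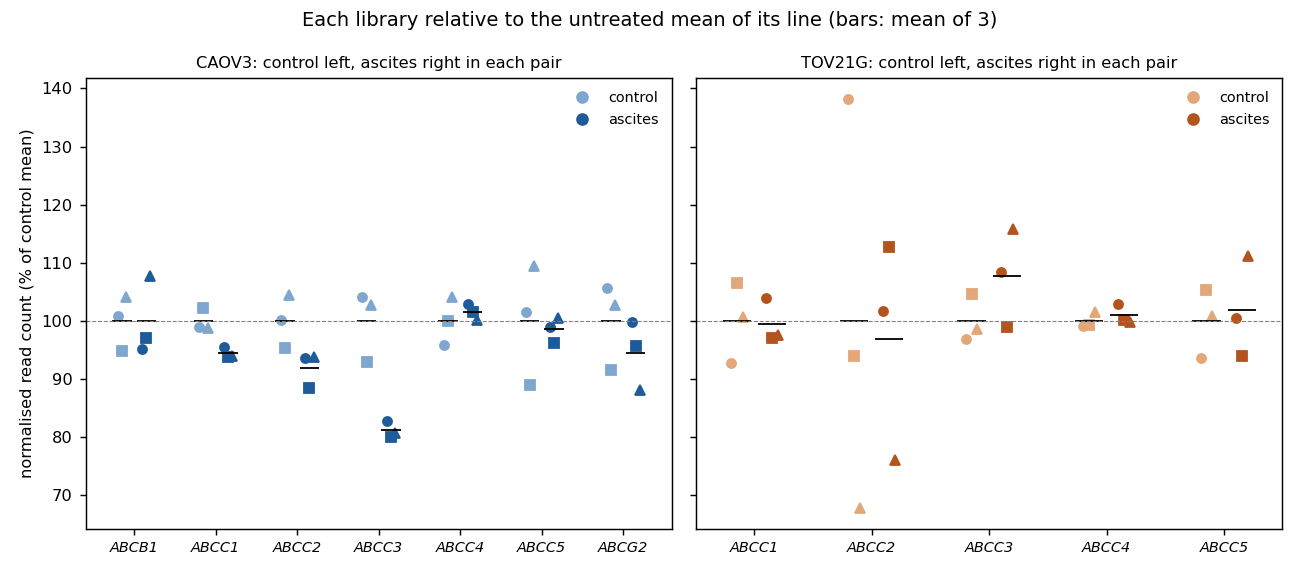
Level of each transporter in each library as a percentage of the mean of the 3 controls of its line, for 7 members in CAOV3 and 5 in TOV21G, where ABCB1 and ABCG2 had too few reads. Each point is a library, shaped by replicate, and each short bar is the mean of 3. The 3 ascites points of ABCC3 in CAOV3 sit at 80.1% to 82.8%, below its controls at 93.0% to 104%, while ABCC3 in TOV21G with ascites spans 99.0% to 116%.

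Some marker sums shifted with ascites in the same CAOV3 libraries, and others overlapped between the groups. Of all genes tested, 24.2% had control and ascites groups without overlap in this line. The 8 epithelial markers were all listed, and they summed to 156900 to 158200 in controls and 181400 to 191900 with ascites. KRT8 and KRT18 make up most of that sum. CDH1 fell, from 389 to 455 in controls to 266 to 281 with ascites, while MUC1 rose, from 46.5 to 55.4 in controls to 109 to 129. Of 5 fibroblast markers 4 were listed, summing to 4618 to 5352 in controls and 4226 to 4437 with ascites. Of 5 mesothelial markers 4 were listed, at 62.4 to 76.2 and 47.0 to 68.6, which overlap. Of 3 endothelial markers 1 (PECAM1) was listed, at 8.61 to 10.2 and 5.11 to 11.2, which also overlap. The 3 leukocyte markers were given above. The part of these shifts in the ABCC3 result was not tested.

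In TOV21G no transporter passed the test for ascites (0 of 7 with limma, edgeR or DESeq2, and 0 at an unadjusted p under 0.05 in limma), and no member had groups that did not overlap. The background was 0.409% of genes called by limma and 11.1% of genes without overlap. At an unadjusted p under 0.05 limma held 1615 of 17616 genes. ABCC3 was at 3037, 3278 and 3090 in controls and at 3403, 3104 and 3630 with ascites, or 108% of control (98.4 to 118, adjusted p = 0.614, limma). ABCC5 was at 2861, 3218 and 3078 in controls and at 3071, 2869 and 3395 with ascites, 102% of control (90.9 to 114, adjusted p = 0.952, limma). ABCC4 was at 4017, 4028 and 4121 in controls and 4176, 4063 and 4052 with ascites, 101% of control (95.7 to 107, adjusted p = 0.937, limma). ABCC1 was at 2074, 2379 and 2249 in controls and at 2322, 2168 and 2182 with ascites, 99.7% of control (92.8 to 107). For these 4 expressed members the intervals reach no further than 90.9% and 118% of control.

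The members with few reads in TOV21G had few with ascites as well. ABCC2 was at 29.3, 19.9 and 14.4 in controls and 21.5, 23.9 and 16.1 with ascites, 99.6% of control, and the fit of TOV21G alone gave an interval from 61.8 to 160%. ABCB1 was at 5.42, 3.15 and 6.28 in controls and at 4.97, 7.08 and 5.37 with ascites, from 15 and 20 reads in all (log2 difference 0.22, adjusted p = 0.753, limma). ABCG2 had 2 reads over the controls and 0 with ascites, so no fold is given. Small changes in ABCB1 or ABCG2 were not detectable at this depth. In TOV21G the main axis of spread within groups held 66.7% of the within-group variance, with scores of -11.8, 10.5 and 1.31 for controls 1 to 3 and 2.27, -11.0 and 8.68 for ascites 1 to 3. ABCC3 and ABCC5 ranked the libraries in the order of these scores in both groups, and ABCC1 did so in the controls. The part of this axis in the ascites comparison was not tested.

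**Figure D4:**
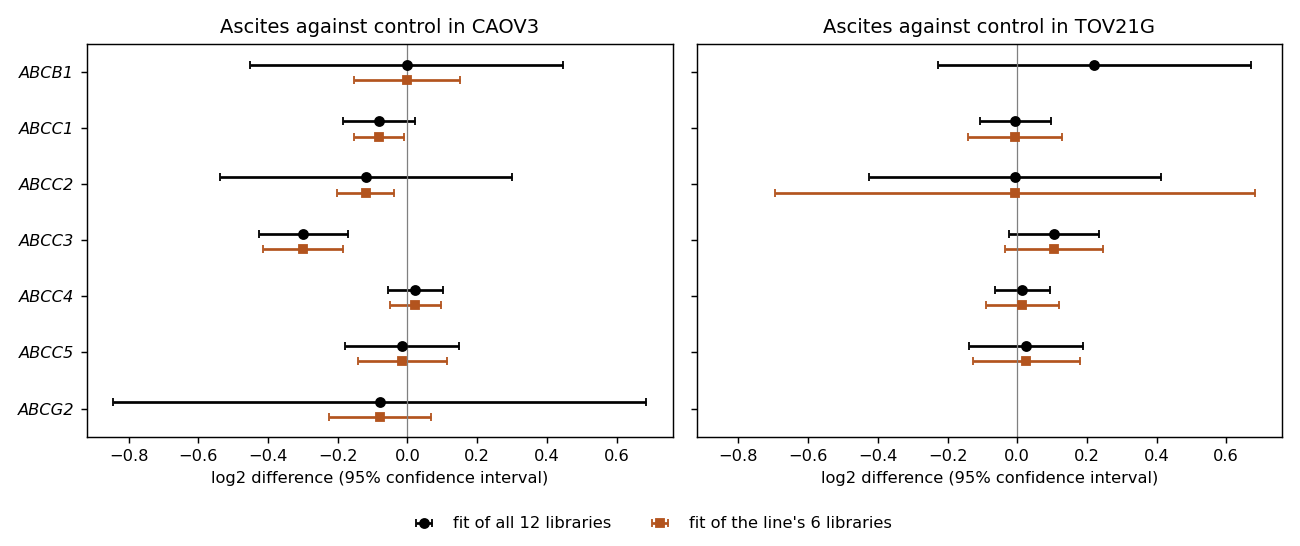
Log2 difference between ascites and control for each transporter with its 95% confidence interval, in CAOV3 and TOV21G, from the fit of all 12 libraries (circles) and from the 6 libraries of the line (squares). ABCC3 in CAOV3, at -0.30, is the only member whose interval excludes 0 in the fit of all libraries, and ABCB1, ABCC2 and ABCG2 have narrower intervals in CAOV3 alone.

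The difference between the responses of the lines was tested directly. For ABCC3 the log2 response in TOV21G minus that in CAOV3 was 0.40 (SE 0.08, 95% confidence interval 0.22 to 0.59), with an adjusted p of 0.0558 that missed the threshold (limma). No member was called by limma, against 0.545% of all genes. In limma, 2091 of 17616 genes had an unadjusted p under 0.05 for this difference, ABCC3 among them. Both edgeR (adjusted p = 0.0390) and DESeq2 (adjusted p = 0.00311) on the recovered reads called ABCC3. Under limma it was also called without CAOV3 control 2 (adjusted p = 0.0436), TOV21G control 2 (0.0495) or TOV21G ascites 2 (0.0160). For the other members the difference in log2 response was 0.22 for ABCB1, 0.08 for ABCC1, 0.11 for ABCC2, -0.01 for ABCC4 and 0.04 for ABCC5, with adjusted p from 0.642 to 0.959 (limma). None is given for ABCG2, which had 2 reads in TOV21G. The intervals were narrowest for ABCC4 (-0.12 to 0.10) and ABCC1 (-0.07 to 0.22).

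Other genes of drug transport and detoxification were followed in 5 lists. Of 41 other ABC genes, 29 were tested, and 2 changed with ascites in CAOV3 by limma, or 6.90% beside 1.73% of all genes. At an unadjusted p under 0.05 limma held 8. Of the other tools, edgeR and DESeq2 each called 3: TAP2, ABCA2 and ABCD3, the last named after its values were seen. Over all 17616 genes in CAOV3, 2280 had an unadjusted p under 0.05 in limma, and edgeR called 511 and DESeq2 507. In TOV21G the same counts were 1615, 114 and 151, and for the difference in response 2091, 148 and 210. These counts are the background for all 5 lists. TAP2, which carries peptides into the endoplasmic reticulum for antigen presentation, rose from 732 ± 17.0 to 897 ± 25.1 (SD, n = 3; log2 difference 0.29, adjusted p = 0.0271, limma). ABCA2, a lipid transporter of endolysosomes, fell from 1300 ± 49.0 to 1132 ± 47.6 (log2 difference -0.20, adjusted p = 0.0372, limma). The median of the list was -0.06 on the log2 scale, against -0.002 over all genes. In TOV21G limma called 0 of 29 (5 at an unadjusted p under 0.05, 0 called by edgeR and 1 by DESeq2), with a median of 0.02 against -0.02 over all genes. The counts for the difference in response were the same: 0 with limma, 5 unadjusted, 0 with edgeR and 1 with DESeq2. The gene that DESeq2 called in both was ABCA5, named after its values were seen. TAP2 lost its call when any 1 of the 6 CAOV3 libraries was left out (adjusted p 0.0634 to 0.114). ABCA2 lost it without CAOV3 control 1 or 3, CAOV3 ascites 1 or 2, TOV21G control 3 or TOV21G ascites 1 (0.0628 to 0.148).

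Glutathione supply and conjugation makes substrates for the ABCC exporters. Of 26 genes 23 were tested, and GGT1, which breaks down extracellular glutathione, was the only gene of the list called with ascites in CAOV3 by limma, edgeR or DESeq2, falling from 619 ± 19.7 to 519 ± 24.9 (log2 difference -0.25, adjusted p = 0.0205, limma). That is 4.35% of the list beside 1.73% of all genes with limma, and 2 genes of the list had an unadjusted p under 0.05. GGT1 lost its call without CAOV3 control 1 or 3 or CAOV3 ascites 2 or 3 (adjusted p 0.0727 to 0.0902). None was called in TOV21G by limma, edgeR or DESeq2 (1 at an unadjusted p under 0.05 in limma), and the list medians were -0.02 in CAOV3 and -0.03 in TOV21G. Of 24 carriers for drug uptake 14 were tested, and of 10 genes of platinum drug handling all 10 were. Neither list held a gene that limma or edgeR called for ascites in a line or for the difference in response, and DESeq2 called 1, MVP in CAOV3. At an unadjusted p under 0.05 in limma the uptake list held 4 genes for CAOV3, 2 for TOV21G and 3 for the difference, and the platinum list 3, 1 and 1. The medians in CAOV3 and TOV21G were -0.007 and -0.02 for uptake and 0.004 and -0.06 for platinum handling.

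Of 20 factors that act on efflux transporter genes, 17 were tested. With ascites in CAOV3, limma, edgeR and DESeq2 each called 1 (5.88%, beside 1.73% of all genes with limma), and 6 had an unadjusted p under 0.05 in limma. AHR, the aryl hydrocarbon receptor, fell in CAOV3 from 4493 ± 176 to 3689 ± 72.8 (log2 difference -0.28, adjusted p = 0.0140, limma), and no factor was called in TOV21G by limma, edgeR or DESeq2 (4 at an unadjusted p under 0.05 in limma). The list medians were -0.04 in CAOV3 and 0.01 in TOV21G. For the difference in response limma called 0 factors (6 unadjusted), edgeR 1 (EGR1) and DESeq2 2 (AHR and EGR1). AHR lost its call without CAOV3 control 2 or 3 or CAOV3 ascites 1 or 2 (0.0573 to 0.0691).

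Between the untreated lines most genes of these lists differed, as did 82.2% of all genes. The median log2 difference, TOV21G minus CAOV3, was -0.13 for the other ABC genes, -0.01 for glutathione, -0.79 for uptake, 0.34 for platinum handling and -0.17 for the factors, against -0.02 over all genes. Of the 29 other ABC genes 10 were higher and 14 lower in TOV21G. ABCA12, a lipid transporter of keratinocytes, was at 52.7 ± 11.0 in TOV21G and 0.33 ± 0.57 in CAOV3, and TAP1, the partner of TAP2, at 2570 ± 174 and 475 ± 27.6. ABCG1, a cholesterol exporter, was at 1.38 ± 1.68 in TOV21G and 176 ± 7.06 in CAOV3, and ABCB4 was given above. Of 23 glutathione genes 11 were higher and 11 lower in TOV21G. The sulfotransferase SULT1A1 (141 ± 16.4 against 9.25 ± 1.43) and the glutathione transferase GSTA4 (763 ± 55.6 against 159 ± 13.6) were higher there. MGST2, a microsomal glutathione transferase, was lower (246 ± 14.9 against 1498 ± 44.9), and the sulfotransferase SULT1E1 was listed at 0 against 14.0 ± 6.63. ABCA12, ABCG1, ABCB4, SULT1A1 and SULT1E1 passed the filter only through the line where they were higher, so their calls follow in part from it.

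All 14 uptake carriers tested differed, 5 higher and 9 lower in TOV21G, beside 82.2% of all genes. SLC22A3, an organic cation transporter, was at 0.66 ± 0.58 in TOV21G and 521 ± 33.4 in CAOV3, and SLCO2B1, an organic anion carrier, was listed at 0 and at 55.9 ± 3.14. SLC22A4 was higher in TOV21G (279 ± 27.2 against 86.4 ± 6.08), as was SLC47A1 (13.6 ± 9.14 against 1.82 ± 1.37). SLC22A3, SLCO2B1 and SLC47A1 passed the filter only through the line where they were higher, so their calls follow in part from it. Of 10 platinum handling genes 5 were higher and 2 lower in TOV21G. The major vault protein gene MVP was at 5473 ± 286 against 2719 ± 131 and LRRC8A, a subunit of volume-regulated anion channels, at 2149 ± 161 against 1178 ± 30.1. The copper pump gene ATP7B (803 ± 25.1 against 1243 ± 105) and the copper chaperone gene ATOX1 (568 ± 65.0 against 710 ± 56.9) were lower. Of 17 factors 4 were higher and 9 lower. PPARA (820 ± 29.7 against 234 ± 2.40) and HIF1A (19510 ± 988 against 7582 ± 224) were higher in TOV21G, while the glucocorticoid receptor gene NR3C1 (422 ± 17.6 against 2495 ± 101) and PPARG (839 ± 52.6 against 3229 ± 123) were lower.

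**Figure D5:**
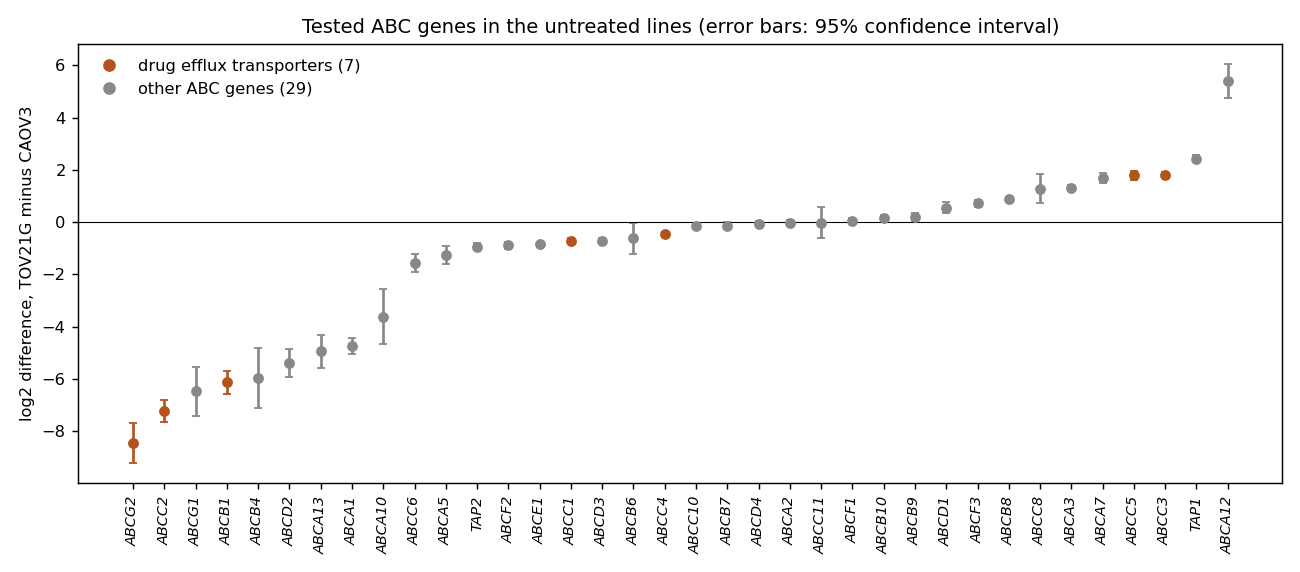
Log2 difference between untreated TOV21G and CAOV3 for the 7 drug efflux transporters and the 29 other ABC genes tested, ordered by size, with a 95% confidence interval for each gene. Values run from -8.46 for ABCG2 to 5.40 for ABCA12, and ABCC2 and ABCB1 are among the lowest.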

How the data were processed

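RNA was sequenced from 12 libraries, 3 in each of 4 groups taken from the sample titles. The deposited value for each gene is a signal: in each library, every value was a whole multiple of 1 step (within 0.01 read), so the authors' values are read counts divided by a size factor. Per the submitters' processing notes, Trim Galore, cutadapt, STAR, HTSeq and DESeq were used, with roles and versions not given in the sources used here, nor were build, annotation and strand. Replicate libraries differed beyond read sampling (chi-square per degree of freedom 1.81 to 22.6), so none was a copy.

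Tests used limma 3.58.1 (R 4.3.3) on log2(value + 1), with the authors' scaling, on all 12 libraries with a mean per group and a trended variance prior, for genes at 10 or more in at least 3 libraries. Adding 1 understates the fold changes of low genes. P-values are two-sided and adjusted by Benjamini-Hochberg over all 17616 genes, and a call is an adjusted p under 0.05. The method was tested on simulated data. Intervals of read ratios are exact conditional binomial at 95% and cover counting error only. Lengths and positions are from GENCODE and promoter windows from RefSeq.

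The members and lists were chosen with earlier results of these data known. All 7 members are named in every comparison. From each list, up to 4 called genes with the largest difference are named for ascites and for the difference in response, and up to 2 in each direction between untreated lines. Alternatives were other pseudocounts (0.5 and 5), no filter, TMM scaling, edgeR 4.0.16 and DESeq2 1.42.0 on recovered reads, each line fitted alone, a replicate block, removal of length and GC trends, and leaving out each library.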

Additional observations from a re-analysis of the deposited data

How the results depend on the processing

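Between the untreated lines all 7 transporters were called under every alternative. In the main fit 82.2% of all genes were called there, so this is not a result about the transporters. ABCB1 and ABCG2 also passed the filter only through CAOV3. For ascites in TOV21G, 0 transporters were called under every alternative. With ascites in CAOV3, 1 was called under every alternative that kept all libraries except the replicate block, and 0 to 1 when a library was left out. For the difference in response the main count of 0 became 1, ABCC3, with a pseudocount of 5 (adjusted p = 0.0453), edgeR, DESeq2 and removal of length and GC trends (adjusted p = 0.0406), and was 0 to 1 when a library was left out. Over all genes the calls for CAOV3 numbered 511 with edgeR, 507 with DESeq2 and 1295 with CAOV3 alone, against 305, and 162 to 345 with a library left out. For TOV21G they numbered 114, 151 and 22 in the same order, against 72, and 24 to 137 with a library left out. For the difference in response they numbered 148 with edgeR, 210 with DESeq2 and 161 without length and GC trends, against 96, and 35 to 147 with a library left out. The cause was not tested. ABCA2 also lost its call without length and GC trends (adjusted p = 0.0869).

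Replicate numbers did not pair the samples: the correlation of same-numbered deviations was -0.06, 0.08 and 0.02 in CAOV3 and -0.28, -0.65 and 0.11 in TOV21G, and not every sample correlated best with its own number. With the replicate block, 0 transporters were called in CAOV3 (ABCC3 adjusted p = 0.129) and 0 for the difference in response (0.305), and over all genes 116 genes were called for CAOV3, 13 for TOV21G and 9 for the contrast of the responses. TAP2, GGT1, AHR and ABCA2 were not called with the block (adjusted p = 0.116, 0.131, 0.0953 and 0.154).

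Log2 differences near 0 that were never called changed sign. Without length and GC trends, ABCB1 was at 0.0012 and ABCC5 at 0.016 in CAOV3, ABCC1 at 0.025 in TOV21G and ABCC5 at -0.0012 for the difference in response. With TMM scaling, ABCC1 was at 0.019 and ABCC2 at 0.017 in TOV21G and ABCC4 at 0.018 for the difference, and with edgeR these were 0.018, 0.012 and 0.020. With a library left out, the range in CAOV3 was -0.057 to 0.033 for ABCB1, -0.0064 to 0.053 for ABCC4 and -0.097 to 0.052 for ABCC5. In TOV21G it was -0.019 to 0.39 for ABCB1, -0.058 to 0.041 for ABCC1, -0.24 to 0.25 for ABCC2 and -0.038 to 0.083 for ABCC5. For the difference it was -0.017 to 0.39 for ABCB1, -0.12 to 0.37 for ABCC2, -0.038 to 0.021 for ABCC4 and -0.026 to 0.12 for ABCC5. ABCB1 and ABCG2 were below the filter when TOV21G was fitted alone, and a line alone gives no difference in response.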
